A study of Homo sapiens with 20 samples.

Results

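A family of plasma-membrane amino acid carriers, 8 of the 19962 genes in the count table, was followed across the 5 conditions of a crosslinking study of IGF2BP3, an RNA-binding protein. The members were chosen by gene identifier, for their shared function: SLC7A11 (ENSG00000151012), SLC7A5 (ENSG00000103257), SLC3A2 (ENSG00000168003), SLC7A1 (ENSG00000139514), SLC38A2 (ENSG00000134294), SLC38A1 (ENSG00000111371), SLC1A5 (ENSG00000105281) and SLC1A4 (ENSG00000115902). RNA was recovered from HCT116 cells, a human colorectal carcinoma line, in a derivative with the genotype Tet-OsTIR1-PURO that every group shared. All cells had received 100 µM 4-thiouridine for 15 h. This uridine analogue is taken into new RNA, crosslinks to bound protein under ultraviolet light, and is read as a T-to-C conversion (PAR-CLIP).

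The groups were tunicamycin (TM) at 5 µg/mL for 1 h, TM at 5 µg/mL for 4 h, and arsenite at 250 µM for 2 h. Tunicamycin blocks protein glycosylation in the endoplasmic reticulum, and arsenite causes oxidative stress. The sample titles say arsenite, whereas the treatment labels say sodium arsenate. The vehicles were DMSO for 4 h, which served both TM times, and PBS for 2 h. Per group, anti-IGF2BP3 antibody was used for 3 libraries and control IgG for 1. Nothing in the labels says that the 3 came from separate cultures, so the p-values measure the spread between libraries. Total counts were 130478 to 1568406 in the 15 anti-IGF2BP3 libraries, with the lowest in PBS replicate 2, and 5981 to 17503 in the 5 IgG libraries. Of 7 epithelial marker genes 5 had crosslinked clusters assigned to them, and of 8 markers of other cell types 0 had any. Clusters were assigned only where a single protein-coding gene of known strand matched. A gene without an assigned cluster may therefore still have been bound. The libraries hold RNA recovered with IGF2BP3, and the amount of each RNA in the cells was not analysed here. More binding per RNA molecule and more RNA therefore cannot be told apart in any result below.

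SLC3A2 is the heavy chain that carries partner light chains to the cell surface. With SLC7A11 (xCT) it forms a carrier that takes up cystine for glutathione synthesis in exchange for glutamate. With SLC7A5 (LAT1) it forms a carrier that imports leucine and other large neutral amino acids. SLC7A1 (CAT1) imports arginine and lysine, SLC38A2 (SNAT2) and SLC38A1 (SNAT1) import glutamine and other neutral amino acids with sodium, and SLC1A5 (ASCT2) and SLC1A4 (ASCT1) exchange neutral amino acids. Several of these genes are known targets of ATF4, the transcription factor that is translated when eIF2α is phosphorylated under stress.

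Crosslinked clusters, the stretches of RNA that the authors called separately in each library, lay in 7 of the 8 genes. The 30-base windows below show what the recovered RNA looked like. Each surrounds the peak position of the deepest cluster in the region with most reads of its gene, and 6 are printed. Over the first windows of all 7 genes, 3 held a short sequence of the kinds searched and 4 held none. Over the 18 windows of up to 3 regions per gene, 7 held one and 11 did not. Each is written 5′ to 3′ in the sense of the transcript, with any CATA and CATC, any CATT, any GGAC and any run of at least TTTTT in capitals.
SLC7A5, chr16:87830485-87830514, minus strand: ccacagGGACcagggccaccgcaggGGACt
SLC38A2, chr12:46360260-46360289, minus strand: tcaacttattagaatggaagataatgcaga
SLC38A1, chr12:46188750-46188779, minus strand: agatcaatttagggattgtgaaaTTTTTTT
SLC7A1, chr13:29513963-29513992, minus strand: ctccccaccccagagccaaatgacagtagt
SLC7A11, chr4:138165620-138165649, minus strand: attttgaatacagaCATTggctccaaattt
SLC3A2, chr11:62888572-62888601, plus strand: ccaaggctgacctcctgctcagcacccagc
The coordinates are those of the deposited clusters on GRCh38. Exon and untranslated-region boundaries were not used here, so the windows are placed only by gene and by distance from the annotated 3′ end.

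**Figure D1:**
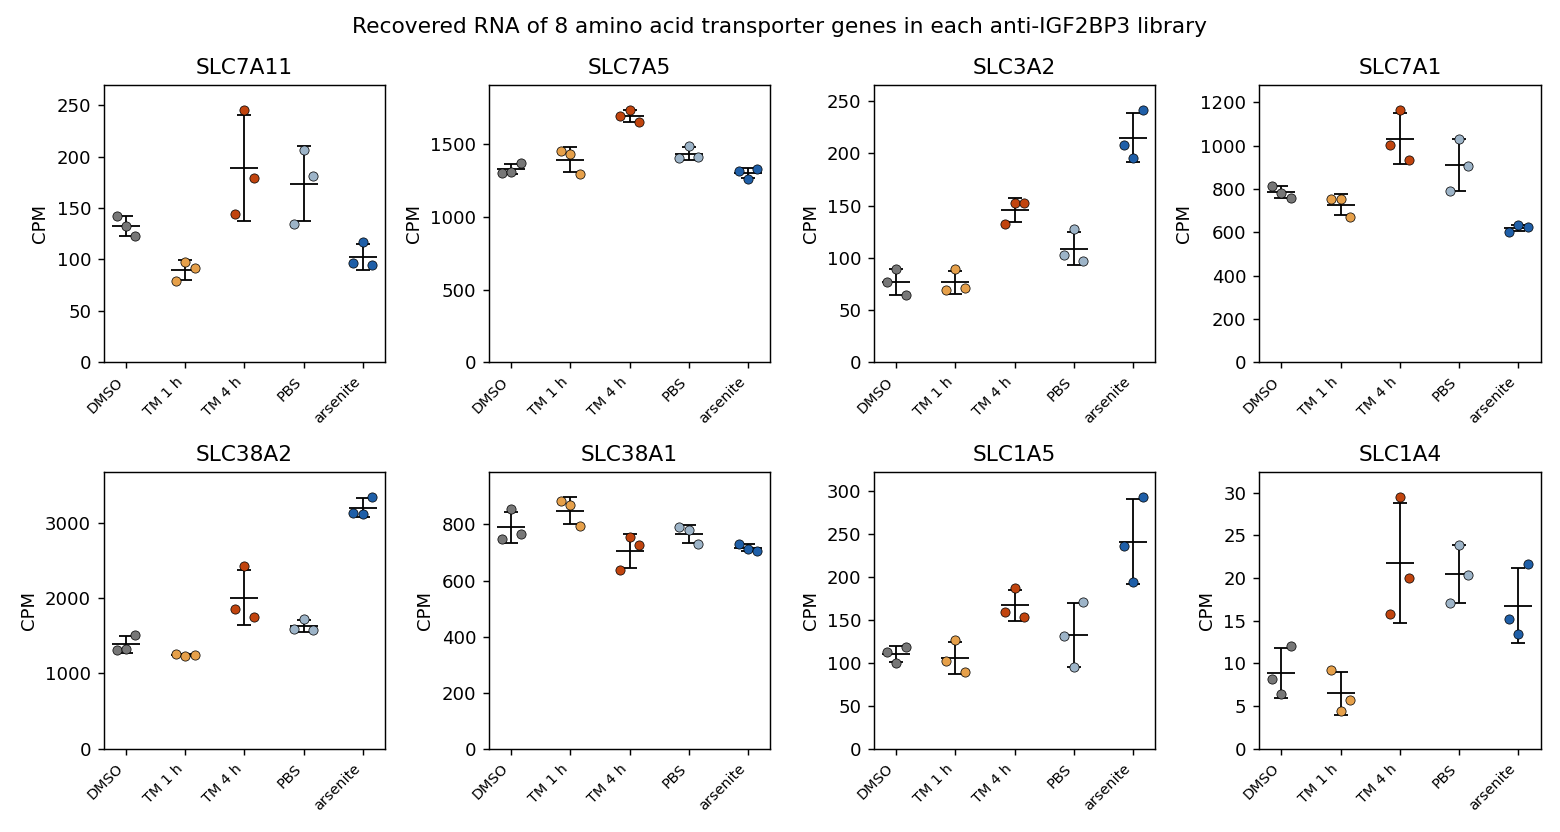
Counts scaled to a common library size (CPM, with TMM factors over 15 libraries, axis from 0) of the 8 genes in each anti-IGF2BP3 library, grouped by condition. Points are libraries, the horizontal mark is the mean and the bars are 1 SD (n = 3); SLC38A2 and SLC3A2 stand highest in arsenite, and SLC7A5 and SLC7A1 have their highest means at TM 4 h.

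After 4 h of tunicamycin, 7 of the 8 carriers were recovered at higher levels than in DMSO, and SLC38A1 was the exception. The rises ran from 1.27-fold for SLC7A5 to 2.32-fold for SLC1A4. After 1 h 0 of the 8 passed the test, 1 (SLC7A11) had an unadjusted p under 0.05, and 0 passed by DESeq2. Arsenite split the family: SLC3A2, SLC38A2 and SLC1A5 rose by 1.75-fold to 2.12-fold, SLC7A11 and SLC7A1 fell, and SLC7A5 and SLC38A1 did not pass. Across all genes tested, 2.79% were called higher and 2.31% lower at TM 4 h (5.11% in all), 0.551% were called at TM 1 h, and 17.6% were called higher and 17.1% lower in arsenite (34.8% in all). The count of 7 of 8 at TM 4 h thus stood against a background of few calls, whereas 5 of 7 tested in arsenite stood against a background of many. The members were chosen with earlier results of these data known, so this contrast is descriptive and no independent test of the family. Genes were called where edgeR's quasi-likelihood F test gave p under 0.05 after Benjamini-Hochberg correction across every gene tested. The median log2 fold change of the 8 was 0.54 at TM 4 h, against 0.00 over all 8343 genes tested. It was -0.12 at TM 1 h. The median of the 7 tested in arsenite was -0.10, against -0.00 over 6642 genes.

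**Figure D2:**
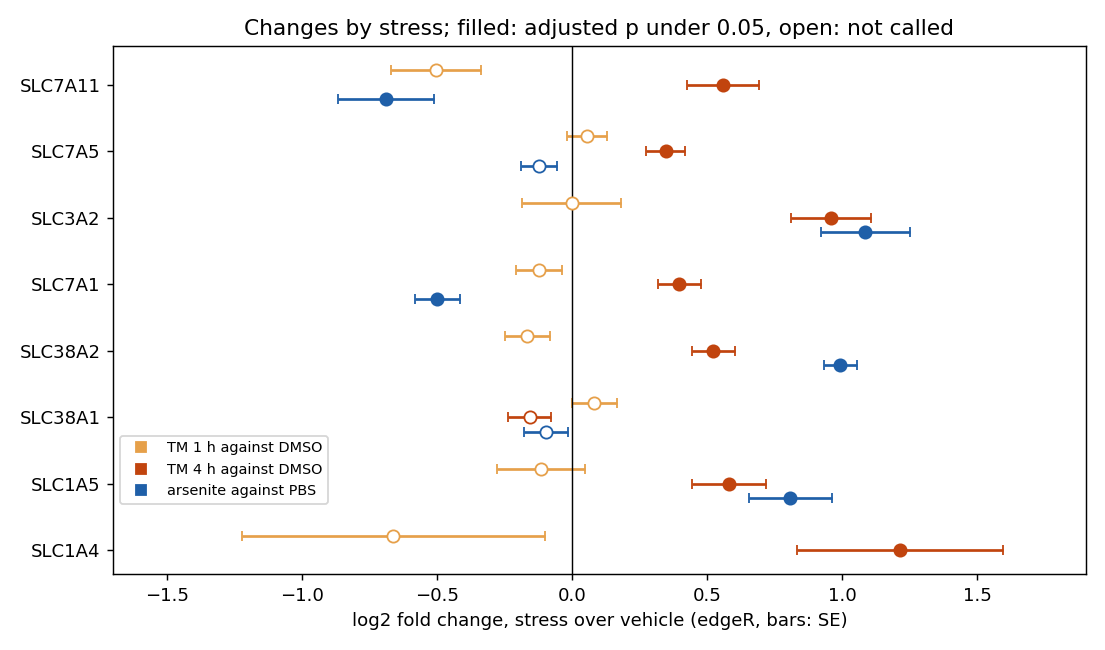
Log2 fold change of each gene against its own vehicle (x axis; bars are 1 SE from edgeR) for TM 1 h, TM 4 h and arsenite. Filled points passed an adjusted p of 0.05 and open points did not; SLC1A4 has no arsenite point because its counts were too low to be tested there.

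SLC3A2, the shared heavy chain, rose in both long stresses. Its level in the DMSO libraries was 76.8, 89.6 and 64.4 CPM, and at TM 4 h it was 133, 153 and 152 CPM. At TM 1 h it was 69.4, 88.8 and 71.0 CPM. All 3 TM 4 h libraries were above all DMSO and TM 1 h libraries, while TM 1 h and DMSO overlapped. The rise at TM 4 h was 0.96 on the log2 scale (SE 0.15, adjusted p = 4.15e-06 by edgeR's quasi-likelihood test). The TM 1 h difference was -0.00 with a 95% interval of -0.36 to 0.36.
In PBS SLC3A2 was at 102, 127 and 96.8 CPM and in arsenite at 208, 196 and 241 CPM. The groups did not overlap, and the log2 fold change was 1.09 (SE 0.17, adjusted p = 2.36e-08). The change in arsenite minus that at TM 4 h was 0.11 with a 95% interval of -0.34 to 0.56, and it did not pass (adjusted p = 0.786, edgeR).

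SLC7A11, the cystine-exchanging light chain xCT, moved in opposite directions in the 2 stresses. It stood at 142.7, 132 and 123 CPM in DMSO and at 144, 245 and 179 CPM at TM 4 h. These groups did not overlap, but the lowest TM 4 h library and the highest DMSO library were nearly level. The log2 fold change was 0.56 (SE 0.13, adjusted p = 0.00412). Without TM 4 h replicate 2, the highest library, it was 0.36 with an adjusted p of 0.167, and without DMSO replicate 3 the adjusted p was 0.0598.
At TM 1 h the levels were 78.7, 97.7 and 92.1 CPM, below every DMSO library. That difference of -0.51 (95% interval -0.83 to -0.18) did not pass, with an adjusted p of 0.2 by edgeR. In PBS it stood at 134, 207 and 181 CPM.
In arsenite the levels were 96.4, 117 and 94.3 CPM, below all PBS libraries. It fell by 0.69 on the log2 scale (SE 0.18, adjusted p = 0.000958), and the arsenite change differed from the TM 4 h change by -1.26 (SE 0.23, adjusted p = 2.05e-05, edgeR). The count of SLC7A11 was 17 to 278 per library, so the counting error was larger here than for SLC7A5 or SLC38A2. RefSeq places the antisense gene SLC7A11-AS1 over the same locus, and whether the authors counted by strand is not given in the sources used here.

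SLC7A5, the leucine-importing light chain LAT1, changed least in size among the called carriers at TM 4 h. It was at 1306, 1310.0 and 1369.9 CPM in DMSO and at 1697, 1735 and 1656 CPM at TM 4 h. At TM 1 h it was at 1458, 1432 and 1296 CPM, which overlapped DMSO. The TM 4 h libraries were all above the others, and the log2 fold change was 0.35 (SE 0.07, adjusted p = 0.000698).
In PBS its levels were 1404, 1486 and 1414 CPM, and in arsenite 1315, 1264 and 1333 CPM. The arsenite libraries were all lower, but the difference of -0.12 (95% interval -0.26 to 0.01) did not pass (adjusted p = 0.147). The arsenite change differed from the TM 4 h change by -0.48 (SE 0.10, adjusted p = 0.000177, edgeR). RefSeq also lists an antisense gene for SLC7A5, SLC7A5-AS1.

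SLC7A1, the importer of cationic amino acids, followed the direction of SLC7A11. Its levels were 812, 783 and 757 CPM in DMSO, 754, 755 and 670.4 CPM at TM 1 h, and 1002, 1164 and 932 CPM at TM 4 h. The 3 groups did not overlap. The TM 4 h rise was 0.40 (SE 0.08, adjusted p = 0.000501), and the TM 1 h difference of -0.12 (95% interval -0.29 to 0.05) did not pass (adjusted p = 0.702).
In PBS it stood at 789.8, 1033 and 907 CPM and in arsenite at 601, 631 and 626 CPM. All arsenite libraries were below all other anti-IGF2BP3 libraries. SLC7A1 fell by 0.50 (SE 0.08, adjusted p = 2.46e-07), and the arsenite change minus the TM 4 h change was -0.91 (SE 0.12, adjusted p = 1.26e-08, edgeR).

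SLC38A2, the stress-inducible neutral amino acid carrier SNAT2, had the lowest adjusted p of the family in both long stresses. DMSO libraries held 1314, 1329 and 1509 CPM, TM 1 h libraries 1254, 1230.1 and 1241 CPM, and TM 4 h libraries 1848, 2418 and 1749 CPM. None of these groups overlapped. The rise at TM 4 h was 0.52 (SE 0.08, adjusted p = 3.54e-06), and the TM 1 h difference was -0.17 (95% interval -0.33 to 0.00, adjusted p = 0.53).
In PBS it was at 1584, 1716 and 1582 CPM and in arsenite at 3132, 3113 and 3340.4 CPM. The arsenite libraries stood above all other anti-IGF2BP3 libraries, at 1.99-fold the PBS level. The log2 fold change was 0.99 (SE 0.06, adjusted p = 6.17e-33) and exceeded that at TM 4 h by 0.46 (SE 0.11, adjusted p = 0.00133, edgeR).

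SLC38A1, the related carrier SNAT1, did not share the rise of SLC38A2. Its levels were 746, 853 and 767 CPM in DMSO, 884, 870.4 and 793 CPM at TM 1 h, and 638, 754 and 728 CPM at TM 4 h. DMSO overlapped both TM groups, and neither difference from DMSO passed. The TM 4 h difference was -0.16 (95% interval -0.32 to -0.00, adjusted p = 0.296). That approximate interval ends just below 0, while the unadjusted p of edgeR's quasi-likelihood test was 0.0524.
In PBS it was at 792, 779 and 731 CPM and in arsenite at 731, 713 and 705 CPM. These differed by -0.10 (95% interval -0.26 to 0.06, adjusted p = 0.378). From TM 1 h to TM 4 h it fell by 0.24 (SE 0.08, adjusted p = 0.0482, edgeR), close to the threshold. That call was lost in 12 of 17 alternatives, among them the removal of any 1 of the 3 TM 1 h libraries and of TM 4 h replicate 1 or 3, with adjusted p-values from 0.0323 to 0.692 over the alternatives.

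SLC1A5, the neutral amino acid exchanger ASCT2, rose in both long stresses. DMSO libraries held 112, 100.3 and 118 CPM, TM 1 h libraries 102, 127 and 89.2 CPM, and TM 4 h libraries 159.6, 188 and 154 CPM. The TM 4 h libraries were above the others, which overlapped. The rise was 0.58 (SE 0.14, adjusted p = 0.0032), and without DMSO replicate 2 it was 0.50 with an adjusted p of 0.0552.
In PBS the levels were spread, at 132, 95.4 and 171 CPM, and in arsenite they were 236, 194 and 293 CPM. The groups did not overlap. The log2 fold change was 0.81 (SE 0.15, adjusted p = 6.93e-06), and its difference from the TM 4 h change, 0.22 (95% interval -0.20 to 0.64), did not pass (adjusted p = 0.536, edgeR).

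SLC1A4, the related exchanger ASCT1, was recovered in few reads, with 2 to 31 counts per library and no called cluster. Its levels were 8.23, 6.401 and 12.1 CPM in DMSO, 9.26, 4.44 and 5.75 CPM at TM 1 h, and 15.7, 29.5 and 20.0 CPM at TM 4 h. TM 4 h stood above both other groups. The rise of 1.21 (SE 0.38) passed narrowly (adjusted p = 0.0452, edgeR) and was lost in 7 of 11 alternatives, among them the removal of TM 4 h replicate 2 or of any 1 DMSO library, with adjusted p-values from 0.0398 to 0.256.
In PBS it was at 17.1, 23.8 and 20.4 CPM and in arsenite at 15.2, 13.4 and 21.7 CPM. These overlapped, and the counts were too low for a test in that fit.

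The 2 TM times were also compared directly, and all 8 carriers passed: 7 were higher at 4 h than at 1 h, and SLC38A1 was lower. Over all genes 5.60% were called higher and 5.99% lower in that comparison (11.6% in all). The log2 difference was 1.06 for SLC7A11 (SE 0.16, adjusted p = 6.19e-07) and 0.69 for SLC38A2 (SE 0.08, adjusted p = 3.52e-09). It was 0.96 for SLC3A2 and 0.52 for SLC7A1. The median of the 8 was 0.69, against 0.01 over all genes. Leaving out TM 1 h replicate 3 reduced the 8 to 4, with SLC7A5, SLC38A1, SLC1A5 and SLC1A4 no longer passing. That count is not set against the calls over all genes in the smaller fit. No vehicle of 1 h was used here, so in the comparisons of TM 1 h the length of the incubation and the time in TM cannot be told apart.

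By their names, replicates 1 and 2 of the DMSO and TM groups form a library set, replicate 3 another, and the PBS and arsenite libraries one of their own. Within the set of replicates 1 and 2 alone, 5 of the 8 were called higher at TM 4 h against DMSO and 4 at TM 4 h against TM 1 h. With the set as a block, the counts were 6 and 8. Calls over all genes also depended on the libraries used. At TM 1 h against DMSO, where 0 carriers were called, they went from 46 to 16 with replicates 1 and 2 alone. The carrier counts of 5, 4, 6 and 8 are not set against the calls over all genes in the same fits. A loss of carriers is therefore not told apart here from a general loss of calls. The replicate 3 set holds 1 library per group and allows no test of its own. Whether the arsenite change differed from the TM 4 h change was tested with each stress against its own vehicle, and 4 of 8 passed: SLC38A2 was higher in arsenite, and SLC7A11, SLC7A5 and SLC7A1 were lower. Over all genes 8.57% were called higher and 9.74% lower (18.3% in all).

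The order of the 5 conditions differed between carriers. For SLC38A2 the means ran from arsenite (3195 CPM ± 126, SD, n = 3) through TM 4 h (2005 ± 361), PBS (1628 ± 76.9) and DMSO (1384 ± 108) to TM 1 h (1242 ± 12.03), and no 2 neighbours in that order overlapped. SLC3A2 had the same order, with arsenite at 215 CPM ± 23.6 and TM 1 h at 76.4 ± 10.8, and only DMSO and TM 1 h overlapped. SLC1A5 again had this order, from 241 CPM ± 49.7 to 106 ± 19.0, but all neighbours below arsenite overlapped.
SLC7A11 and SLC7A1 had TM 4 h highest, then PBS and DMSO. SLC7A11 was lowest at TM 1 h (89.5 CPM ± 9.77), with arsenite overlapping it, and SLC7A1 was lowest in arsenite (619.7 ± 15.97), which overlapped no neighbour. For SLC7A5 only TM 4 h stood apart, at 1696 CPM ± 39.7, and the other neighbours overlapped down to arsenite at 1304 ± 35.4. SLC38A1 spanned the narrowest range, its highest mean being 1.20 times its lowest. The vehicles themselves were not level: SLC7A5, SLC3A2, SLC38A2 and SLC1A4 were higher in every PBS library than in every DMSO library. The other carriers overlapped between the vehicles. PBS and DMSO lie in different library sets, and the share of all genes that separate in this way was not computed.

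Partners were then set against each other within libraries, in 3 pairs chosen after the values had been seen, with 9 comparisons of stress with vehicle. A ratio within a library does not depend on the scaling between libraries. There were 0.76, 0.62 and 0.54 SLC3A2 reads per SLC7A11 read in PBS and 2.16, 1.67 and 2.56 in arsenite. The groups did not overlap, and the ratio was 3.32-fold higher in arsenite (exact permutation p = 0.1, two-sided, the smallest that 3 against 3 allows; 0.15 after adjustment over 9). In DMSO the ratio was 0.54, 0.68 and 0.52. At TM 1 h it was 0.88, 0.91 and 0.77, 1.48-fold higher without overlap (exact permutation p = 0.1, and 0.15 adjusted). The TM 4 h ratios of 0.92, 0.62 and 0.85 overlapped those of DMSO (exact permutation p = 0.2).
For LAT1 and its heavy chain, the SLC3A2 to SLC7A5 ratio was 2.18-fold higher in arsenite than in PBS and 1.495-fold higher at TM 4 h than in DMSO. For the paired sodium-coupled carriers, there were 2.00, 2.204 and 2.16 SLC38A2 reads per SLC38A1 read in PBS and 4.28, 4.36 and 4.74 in arsenite. The ratio at TM 4 h was 2.89, 3.21 and 2.40, against 1.76, 1.56 and 1.97 in DMSO. None of these 4 pairs of groups overlapped, and each had an exact permutation p of 0.1, which no design of this size can improve on. At TM 1 h both of these ratios overlapped DMSO, at 0.949-fold for SLC3A2 over SLC7A5 (exact permutation p = 0.8) and 0.835-fold for SLC38A2 over SLC38A1 (p = 0.2, exact).

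**Figure D3:**
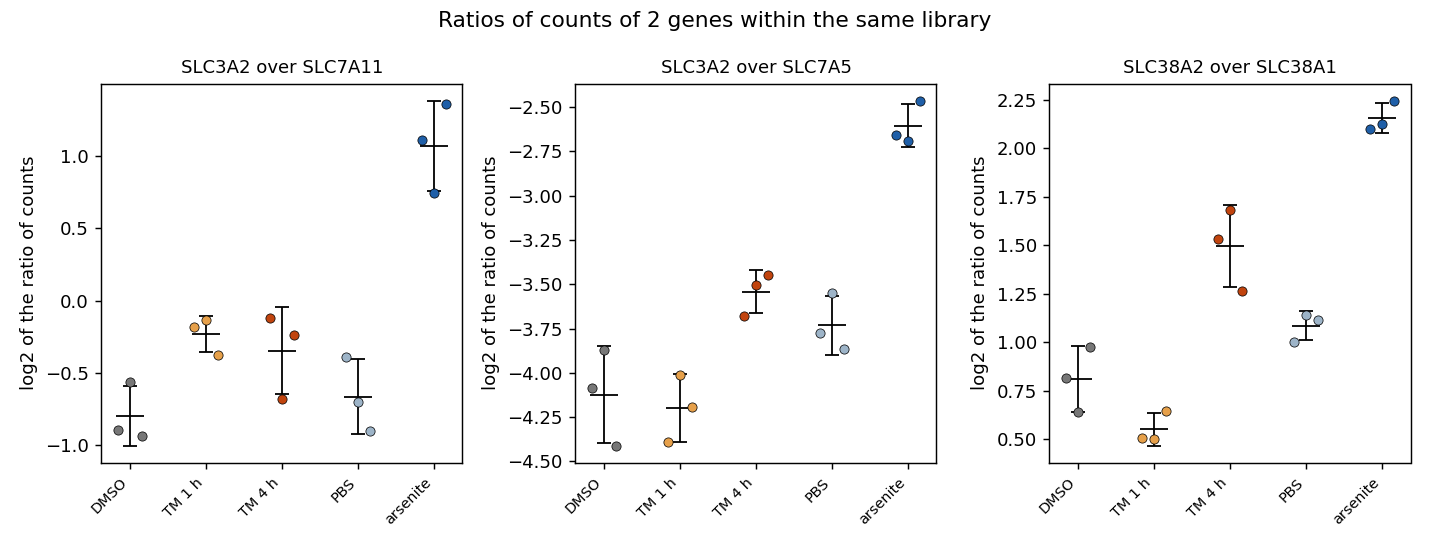
Log2 ratio of the counts of 2 genes in the same library (y axes do not start at 0), by condition, with the mean and 1 SD (n = 3). In all 3 pairs the arsenite libraries stand above every PBS library, and for SLC38A2 over SLC38A1 the TM 4 h libraries stand above every DMSO library.

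Similarity of pattern was described over the 15 anti-IGF2BP3 libraries among 3337 genes that averaged 50 counts or more. SLC38A2 was the second closest of these to SLC3A2, with a Pearson correlation of 0.93 of log2(CPM + 1). SLC7A11 and SLC7A1 correlated at 0.86, and SLC38A2 and SLC1A5 at 0.89. SLC38A1 correlated negatively with each of the other 7, from -0.62 to -0.13. These values share the same libraries and the same conditions, and they describe only a common pattern. The other genes nearest to a member have identifiers that the files do not pair with names.

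The control IgG libraries set the background of the recovery. Summed over the 5 IgG libraries there were 57 reads of SLC7A5, 105 of SLC38A2, 38 of SLC38A1, 29 of SLC7A1, 8 of SLC3A2, 6 of SLC7A11, 6 of SLC1A5 and 1 of SLC1A4, among 52256. For SLC38A2 this was 2009 CPM by library totals, against 1868 CPM in the pooled anti-IGF2BP3 libraries. For SLC7A5 it was 1091 against 1396 CPM, and for SLC7A1 555 against 781 CPM. With library totals as the only scaling, 0 of the 7 carriers tested passed between antibody and IgG in edgeR's quasi-likelihood test, 0 had an unadjusted p under 0.05, and 0 passed by DESeq2. Over all genes 1.31% were called, 6 higher and 86 lower with the antibody. Under TMM scaling SLC7A5, SLC7A1 and SLC38A2 were higher with the antibody (adjusted p of 4.37e-05, 0.000727 and 0.0322), and 582 genes were called. Of the 440 clusters called in the 5 IgG libraries, 1 lay in a member, SLC7A1 (0.227%, exact 95% interval 0.00575% to 1.26%). In the 15 anti-IGF2BP3 libraries 1624 of 412123 did (0.394%), a share within that interval, which covers counting error only. With 1 to 105 reads per carrier over the IgG libraries, small differences were not detectable at this depth.

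Clusters located the recovered RNA along the genes. SLC38A2 had 430 clusters, SLC38A1 351, SLC7A5 350 and SLC7A1 313, each with clusters in all 15 libraries. SLC1A5 had 84 in 14 libraries, SLC3A2 56 in 13 and SLC7A11 40 in 7. Deeper libraries held more clusters, since each library was called on its own reads. Merging overlapping clusters gave 140 regions, of which 35 were found in at least 10 libraries, 17 in all 15 and 43 in 1 only.

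**Figure D4:**
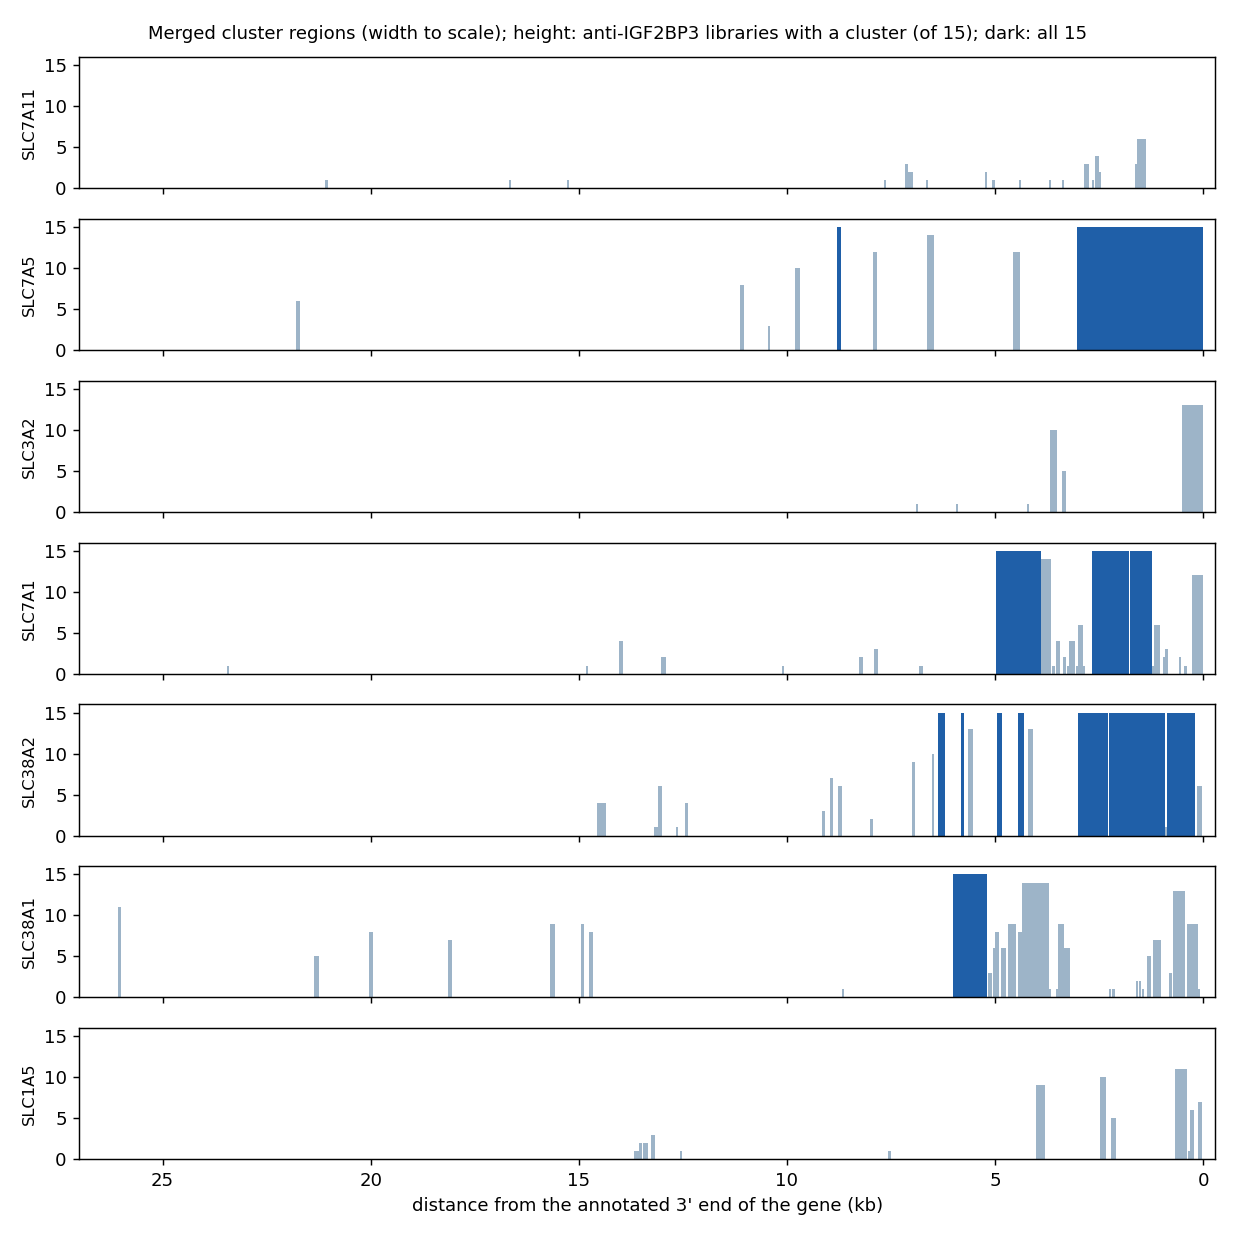
Merged cluster regions of 7 genes by distance from the annotated 3′ end of the gene (x axis, kb; 134 of 140 regions lie within 27 kb and are drawn), with the number of anti-IGF2BP3 libraries that had a cluster there as the height (y axis, of 15). Dark bars mark the 17 regions called in all 15 libraries; both of those of SLC38A1 lie over 5 kb from the 3′ end, and SLC7A11, SLC3A2 and SLC1A5 have none.

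Most reads lay near the 3′ end in 6 of the 7 genes. Within 5 kb of it lay 98.2% of the cluster reads of SLC3A2, 97.9% of those of SLC7A1, 89.4% of SLC1A5, 85.1% of SLC7A5, 79.2% of SLC38A2 and 71.7% of SLC7A11. In SLC38A1 the share was 43.5%, and the median read lay 5262 bases from the end. The median for SLC3A2 was 152 bases. These are distances on the genome, in which introns are counted, so they give no position within the spliced RNA.

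The printed SLC7A5 window with its GGAC pair lay in a region of 7031 reads, and 9 of 15 libraries had their peak within it. The SLC38A2 window, with none of the searched sequences, lay in a region of 4878 reads, and 6 libraries had their peak within it. For the other printed windows this held in 7 libraries for SLC7A1, 6 for SLC38A1, 3 for SLC7A11 and 1 for SLC3A2. The SLC7A11 window came from a cluster of 18 reads. Over the 1486 cluster windows of the members, 32.1% held CATA, CATC or CATT, against 40.5% of 364271 windows over all clusters. GGAC was in 10.0% and 7.23%, and TTTTT in 4.98% and 6.597%. Windows of 1 region in several libraries are not independent, and these shares are descriptive.

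**Figure D5:**
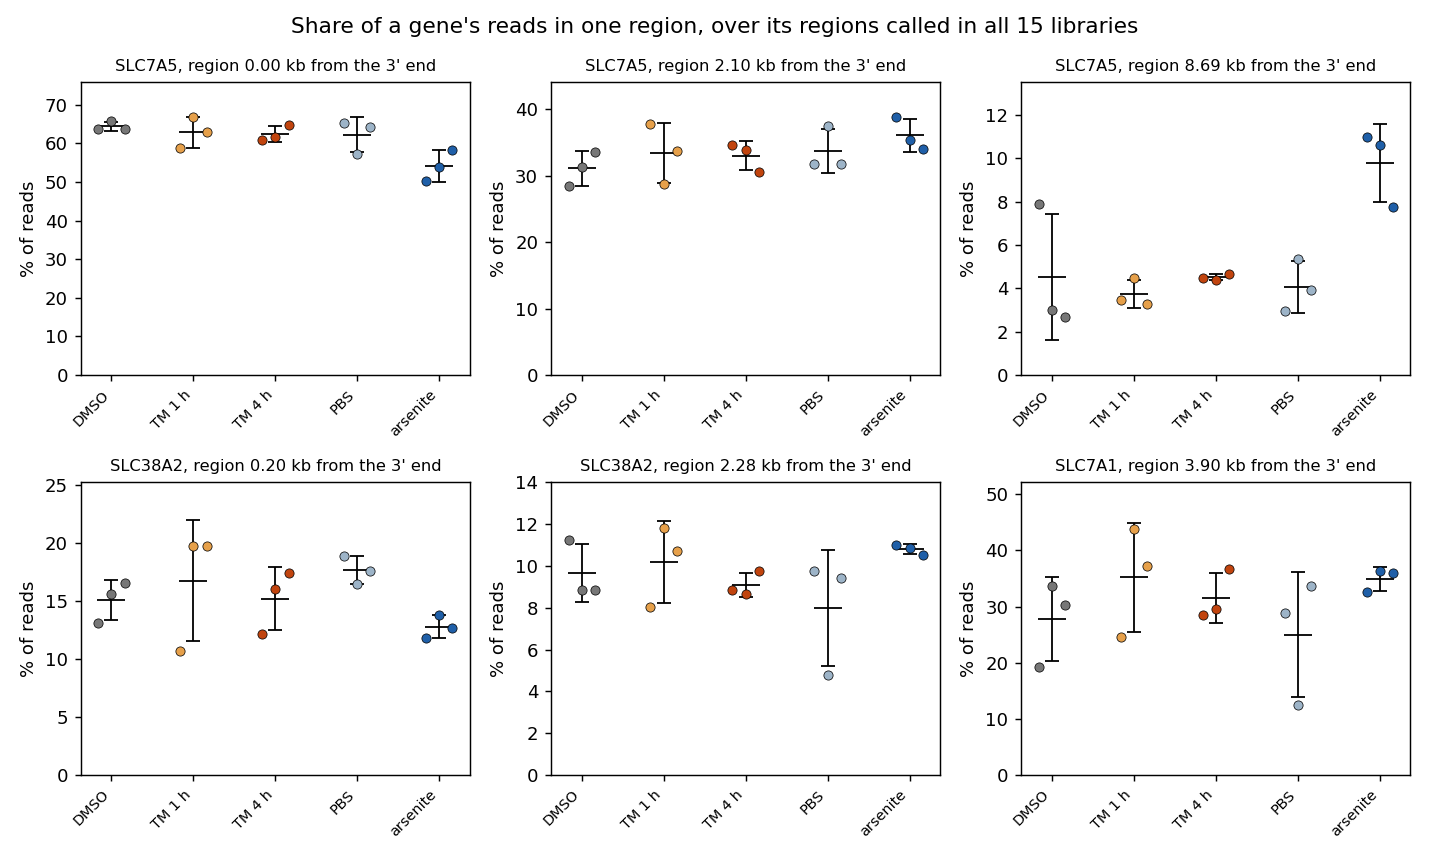
Share of a gene's reads in 1 region, in percent of the reads in its regions called in all 15 libraries (y axes from 0), for regions of SLC7A5, SLC38A2 and SLC7A1, with the mean and 1 SD (n = 3). The SLC7A5 region 8.69 kb from the 3′ end holds 7.75% to 10.997% in arsenite and 2.95% to 5.36% in PBS; the SLC7A1 region shown, 3.9 kb from the 3′ end, overlaps between each stress and its vehicle.

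The share of reads in each of the 17 regions called in all 15 anti-IGF2BP3 libraries was set against vehicle. Groups did not overlap for 0 regions at TM 1 h, 5 at TM 4 h and 3 in arsenite. How often regions of other genes separate in this way was not computed. These counts therefore have no background and are descriptive. In SLC7A5, 3 regions were called in every library. That nearest the 3′ end held 65.3%, 57.1% and 64.3% of their reads in PBS and 50.2%, 54.0% and 58.3% in arsenite, with overlap. The region 8688 bases from the 3′ end held 2.95%, 5.36% and 3.92% in PBS and 10.997%, 10.6% and 7.75% in arsenite. Those groups did not overlap, whereas DMSO replicate 1, at 7.89%, lay within the arsenite range.
In SLC38A2 the region 201 bases from the end held 18.9%, 16.4% and 17.6% in PBS and 11.8%, 13.8% and 12.7% in arsenite, without overlap. The region at 2279 bases held 9.74%, 4.79% and 9.43% in PBS and 11.01%, 10.9% and 10.5% in arsenite, also without overlap. At TM 4 h, the SLC38A1 region at 5179 bases held 25.0%, 25.6% and 25.8% of the reads, against 20.7%, 20.5% and 20.0% in DMSO, while the TM 1 h libraries lay on both sides of both groups. The other SLC38A1 region is its complement.
Also at TM 4 h, the SLC7A1 region at 2128 bases held 23.4%, 21.4% and 19.5%, against 23.57%, 23.56% and 27.0% in DMSO. The SLC38A2 region at 913 bases held 33.0%, 29.9% and 30.7%, against 33.2%, 33.8% and 35.1%. That at 2761 bases held 15.6%, 13.9% and 14.4%, against 13.4%, 11.8% and 12.6%. In SLC7A1 and at 913 bases in SLC38A2 the gap between the groups was narrow. No test was made of these shares, and shares within a gene are not independent.

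T-to-C conversions mark crosslinked uridines in the reads. Over the member clusters 8.09% ± 0.22 (SD, n = 3) of events were conversions in DMSO. The TM 1 h libraries had 8.27% ± 0.52 and the TM 4 h libraries 8.56% ± 0.53. The shares were 8.43% ± 0.29 in PBS and 8.27% ± 0.22 in arsenite. None of the 3 differences from vehicle exceeded the spread: 0.18 percentage points at TM 1 h (exact permutation p = 0.7), 0.47 at TM 4 h (p = 0.3, exact) and -0.15 in arsenite (p = 0.5, exact), each with p = 0.7 after adjustment over 3. Over all clusters the arsenite libraries were 0.68 percentage points above PBS.

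Promoter sequences were searched because 7 of the carriers rose together at TM 4 h and several are known ATF4 targets. RefSeq promoter windows of GRCh38.p14, from 250 bases before to 50 after a transcript start, were given for 7 of the 8 genes (13 windows), not for SLC7A11. The core of the C/EBP-ATF response element, TGATGNAA on either strand, was in 5 of the 13, each in a different gene. It was in 3.62% of 35116 windows over all genes. A different sequence, TGACNNNGC, which no TGATGNAA match can contain at the same position, was searched as well. That search was separate and is no control for the first. TGACNNNGC was in 4 of 13, in SLC3A2, SLC7A1, SLC7A5 and SLC1A5, and in 13.3% of all. The TGATGNAA matches are shown in capitals within 30 bases or fewer, in the sense of the gene, as matches of letters only.
SLC1A4, chr2:64989381-64989410, plus strand: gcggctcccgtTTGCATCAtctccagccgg
SLC3A2, chr11:62881725-62881748, plus strand: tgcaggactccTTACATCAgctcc
SLC38A1, chr12:46266502-46266531, minus strand: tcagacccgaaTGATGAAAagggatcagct
SLC7A1, chr13:29595663-29595692, minus strand: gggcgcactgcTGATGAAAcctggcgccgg
SLC1A5, chr19:46784893-46784922, minus strand: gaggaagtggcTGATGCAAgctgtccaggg
In SLC1A4 and SLC3A2 the match is on the opposite strand, so its letters read as the reverse complement. Among these windows, SLC38A1, which was not called at TM 4 h, carries a TGATGNAA match, and SLC38A2 and SLC7A5, which rose, carry none. The 7 genes had 1 to 3 windows each, so these shares are descriptive. Whether the matches or ATF4 bear on the recovered RNA was not tested.

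Other genes of the pathway could be followed only by the reads in their clusters, because the count table's identifiers are not paired with names. This test is weaker, and it called 0.221% of 4516 genes at TM 4 h and 12.3% of 2584 in arsenite. Among the 8 carriers it called SLC38A2 in arsenite and none at TM 4 h. Of 16 regulators and partners, 9 could be tested at TM 4 h and 1 rose: DDIT3 (CHOP), a transcription factor of the stress response, at 194 RPM ± 49.5 (SD, n = 3; RPM are cluster reads scaled to the library's total over genes with clusters), with no cluster in any DMSO library (adjusted p = 0.00756, edgeR). Of 21 genes of amino acid sensing by mTORC1, 10 were tested and 2 rose. These were SESN2, a leucine sensor, from 226 ± 26.6 to 634 ± 137 (adjusted p = 0.00756), and DDIT4 (REDD1), an inhibitor of mTORC1, from 20.7 ± 24.2 to 409 ± 35.7 (adjusted p = 0.00575).
In arsenite 3 of 6 regulators tested rose. ATF3, a stress-induced transcription factor, went from 321 ± 285 to 2738 ± 567 RPM (adjusted p = 0.0111). NFE2L2 (NRF2), the regulator of antioxidant genes, went from 592 ± 195 to 2341 ± 442 (adjusted p = 0.00487), and CD44, which binds and stabilises xCT at the membrane, rose by 0.99 on the log2 scale (adjusted p = 0.0276, edgeR). SESN2 was the 1 of 2 tested mTORC1 genes that rose, from 236 ± 90.2 to 635 ± 82.6 (adjusted p = 0.00752).
ATF4 itself stood at 518 ± 262 in PBS and 137 ± 69.4 in arsenite, which did not pass (adjusted p = 0.0709). At TM 4 h ATF4 was at 726 ± 130 RPM, against 616 ± 233 in DMSO. That log2 fold change of 0.27 (SE 0.29) did not pass either. Of 30 other amino acid transporters 11 had an assigned cluster and 3 could be tested at TM 4 h, 1 of them in arsenite, and none passed. That 1 was SLC7A6, at 17.5 ± 15.8 in PBS and 157 ± 92.0 in arsenite (adjusted p = 0.0581). Of 12 genes of glutathione and glutamine use, 7 were tested at TM 4 h and 3 in arsenite, and none passed; TXNRD1, thioredoxin reductase, was at 2635 ± 150.3 in PBS and 1477 ± 204 in arsenite (adjusted p = 0.0722).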

How the data were processed

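The authors deposited whole-number counts per gene and, per library, a list of crosslinked clusters with positions, read counts and counts of conversion events. Per the submitters' processing notes, bcl2fastq 2.20.0.422, UMI-tools 1.1.1, Trimmomatic 0.30, Bowtie 0.12.7, featureCounts 2.0.1 and the builds GRCh38.p13 and hg38 were used. The cluster caller and strand setting are not given in the sources used here, and the RNase dose of each library is not stated.

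The test of the counts was edgeR's (version 4.0.16, R 4.3.3; filterByExpr, TMM, quasi-likelihood test, two-sided, Benjamini-Hochberg over all genes tested, threshold 0.05). The 9 DMSO and TM libraries shared a fit, PBS and arsenite another, and the difference of stresses used 12 libraries. DESeq2 1.42.0, other scalings, filters, blocks and left-out libraries were alternatives. The test was tried on simulated counts. 95% intervals are 1.96 SE, an approximation that can be slightly narrower than the quasi-likelihood test implies. Intervals cover the spread between libraries only. Columns left unmapped numbered 0.

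Clusters were read as 1-based, because 1029 of 1029 inside RefSeq promoter windows matched the window's bases. Of 412123 clusters, 82.1% were assigned to 1 protein-coding gene, by strand and by the position of the cluster's midpoint within the gene. Clusters of a carrier were merged into regions where they overlapped by at least 1 base. The strand of SLC7A11 was taken from its cluster reads. All 8 carriers are named, with list genes called in a comparison of stress with vehicle, the 2 genes most like each carrier where the files name them, and up to 3 regions per carrier. Genes that did not pass and are named from the lists were picked after their values were seen. The members and lists were chosen with earlier results of these data known. The IgG cluster lists of PBS and arsenite carry each other's names, and the attachment to samples was followed. One peak window is not reported here.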

Additional observations from a re-analysis of the deposited data

Results flagged for a closer look

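The change of a carrier differed between the 2 TM times in a direct test (edgeR's quasi-likelihood test, TM 4 h minus TM 1 h on the log2 scale, adjusted over all genes). The difference was 1.06 for SLC7A11, 0.29 for SLC7A5, 0.96 for SLC3A2 and 0.52 for SLC7A1. It was 0.69 for SLC38A2, -0.24 for SLC38A1, 0.70 for SLC1A5 and 1.88 for SLC1A4, with adjusted p-values from 3.52e-09 for SLC38A2 to 0.0482 for SLC38A1.

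The change in arsenite differed from that at TM 4 h in a test of the difference itself for 4 carriers. It was -1.26 for SLC7A11, -0.48 for SLC7A5, -0.91 for SLC7A1 and 0.46 for SLC38A2, with adjusted p-values from 1.26e-08 for SLC7A1 to 0.00133 for SLC38A2. The 2 stresses lie in different library sets, and each change was taken against its own vehicle.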

How the results depend on the processing

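Of 659 recomputed single values, 599 kept their direction and their side of the threshold, 46 lost a call, 0 gained one and 14 changed sign. Reads in clusters per gene, an alternative chosen after seeing the data, called 0 carriers at TM 4 h against DMSO, 0 at TM 4 h against TM 1 h, 1 in arsenite and 0 for the difference of the stresses, and it accounts for 19 of the lost calls. Leaving out 1 library gave 4 to 8 carriers at TM 4 h against TM 1 h and 5 to 7 at TM 4 h against DMSO, and replicates 1 and 2 alone gave 4 in the former. These counts, and those with the replicate block below, are not set against the calls over all genes in the same fits. DESeq2 called 9 genes at TM 1 h, 212 at TM 4 h, 627 at TM 4 h against TM 1 h, 1530 in arsenite and 1088 against IgG. TMM scaling against IgG called 3 carriers. Clusters of at least 10 reads gave 84 regions.

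The small TM 1 h difference of SLC3A2 turned to 0.0016 with relative log expression scaling, 0.0179 with the replicate block, 0.0136 with the library set as a block and 0.54 in cluster reads, and to between -0.17 and 0.16 without 1 library. That of SLC1A5 was 0.17 with replicates 1 and 2 and between -0.26 and 0.089 without 1 library. In cluster reads SLC38A1 in arsenite was 0.17 and SLC7A11 in the difference of the stresses 4.58, the latter from clusters in 7 of 15 libraries. Leaving out 1 library put the difference of the stresses between -0.0565 and 0.29 for SLC3A2 and between -0.0124 and 0.12 for SLC38A1, both lowest without DMSO replicate 2. The conversion difference at TM 1 h was -0.14 with clusters of at least 10 reads, and that in arsenite 0.28 as a mean per cluster. Leaving out 1 library put them between -0.12 and 0.35 (negative without TM 1 h replicate 1) and between -0.28 and 0.013 (positive without PBS replicate 2). The cause was not tested.

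Pairing of the libraries by replicate number was not seen: correlations of same-numbered libraries ran from -0.12 to 0.09, and 10 of 24 comparisons were highest with their own number. These values do not show that pairing is absent. With the replicate block 0, 6, 7, 5 and 4 carriers were called at TM 1 h, at TM 4 h, at TM 4 h against TM 1 h, in arsenite and in the difference of the stresses. Depth limits SLC1A4 and the IgG libraries most.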
